A study of Mus musculus with 12 samples.

Results

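The 36 genes described here form a list for mitochondrial fatty acid oxidation and the making of ketone bodies in mouse liver. The list includes some genes of branched-chain amino acid breakdown and of the propionate route. Members were chosen by name and function, as rows of the deposited gene count table whose Ensembl ID maps to a listed symbol, with no measured value in the rule itself; all 36 were found among the 49398 genes of that table. Messenger RNA was sequenced from livers of wild-type C57BL/6J mice that began a feeding experiment at 9 months of age. For 8 weeks the animals ate the purified chow AIN-93G with no added oil (control diet), or the same chow with 1% or 5% by weight of a concentrate of very-long-chain polyunsaturated fatty acids (VLCPUFA, fatty acids longer than the common omega-3 fatty acids of fish oil). All livers, controls included, were taken after a fast of 5 hours and under tribromoethanol. Each diet had 4 livers, 2 from females and 2 from males, and each animal has a number. Values of single livers are listed in a fixed order, females before males: N979, N980, N967 and N968 for control, N983, N984, N971 and N972 for 1% oil, and N987, N988, N975 and N976 for 5% oil. The design text of the series speaks of 6 samples per diet, and the 12 labelled libraries were analysed here.

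Fatty acids are activated to acyl-CoA esters by synthetases before they can be burned. Long-chain esters cross into the mitochondrion as carnitine esters through the carnitine shuttle, with the CPT1 step under inhibition by malonyl-CoA. Inside, a cycle of acyl-CoA dehydrogenase, enoyl-CoA hydratase, hydroxyacyl-CoA dehydrogenase and thiolase shortens the chain and releases acetyl-CoA. The liver turns part of that acetyl-CoA into ketone bodies during fasting. Many genes of this route are known targets of the nuclear receptor PPARα, for which polyunsaturated fatty acids are natural ligands; it binds as a pair with RXR to repeats of a short core sequence.

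Acsm5, Acsl1 and Acadm were the genes past the threshold at 5% oil, and Cpt1a encodes the entry enzyme of the liver shuttle. The promoter sequences of these 4 of the 36 genes are printed here. Each is the RefSeq sequence of the 250 bases before the annotated start, build GRCm38.p6, read 5′ to 3′ on the gene's strand: Acsm5 at chr7:119526015-119526264 (plus strand), Acsl1 at chr8:46470787-46471036 (plus strand), Acadm at chr3:153944644-153944893 (minus strand) and Cpt1a at chr19:3323051-3323300 (plus strand). Capitals mark the nuclear receptor core AGGTCA, written TGACCT where it lies on the opposite strand, and CACGTG, the E-box that clock factors are known to bind.
Acsm5: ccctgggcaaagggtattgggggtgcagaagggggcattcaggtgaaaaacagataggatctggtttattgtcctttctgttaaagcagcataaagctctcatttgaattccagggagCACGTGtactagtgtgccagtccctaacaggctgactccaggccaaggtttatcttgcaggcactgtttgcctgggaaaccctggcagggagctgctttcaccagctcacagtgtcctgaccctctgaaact
Acsl1: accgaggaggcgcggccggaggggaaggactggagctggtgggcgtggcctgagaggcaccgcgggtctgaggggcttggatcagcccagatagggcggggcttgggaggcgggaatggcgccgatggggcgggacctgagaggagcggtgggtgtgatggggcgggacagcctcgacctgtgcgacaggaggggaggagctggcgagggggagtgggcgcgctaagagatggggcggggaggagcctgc
Acadm: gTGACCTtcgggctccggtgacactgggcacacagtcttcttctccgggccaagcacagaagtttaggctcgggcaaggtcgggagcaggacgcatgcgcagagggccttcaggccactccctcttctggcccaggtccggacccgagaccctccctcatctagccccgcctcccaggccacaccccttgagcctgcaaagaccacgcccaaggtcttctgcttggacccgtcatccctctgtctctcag
Cpt1a: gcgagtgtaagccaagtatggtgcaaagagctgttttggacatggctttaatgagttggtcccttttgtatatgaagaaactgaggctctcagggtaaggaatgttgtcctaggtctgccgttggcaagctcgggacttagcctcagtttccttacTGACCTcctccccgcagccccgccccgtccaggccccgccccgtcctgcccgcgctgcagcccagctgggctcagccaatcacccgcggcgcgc
The Acsm5 window held 1 CACGTG, and the Acadm and Cpt1a windows each held 1 AGGTCA core. The printed Acsl1 window, 1 of 2 for that gene, held neither. The search covered both strands of all 32851 such windows in the table, and 31 of the 36 genes matched at least 1 window. These 31 genes had 34 windows, and a gene counted if any of its windows held the motif. The shares below are of genes for the 31 and of windows for the whole, which are unlike units. The AGGTCA core occurred in windows of 6 of those 31 genes (19.4%; Acadm, Acadvl, Acsm1, Cpt1a, Echs1 and Pcca), against 14.0% of all windows. A pair of AGGTCA cores in the same direction and 1 base apart, the arrangement PPARα with RXR is known for, contains the single core and occurred in 0.0335% of all windows and in none of the 31 genes' windows. CACGTG occurred in 6.02% of all windows and in 1 of the 31 genes (3.23%; Acsm5). A match is a stretch of letters in this window and was not measured as a binding site.

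Depth ran from 5291385 to 15674130 estimated reads per library, and control female N979 was the shallowest. All 12 hepatocyte markers were detected, so the defining markers of the labelled tissue were present. Their sum was mostly Alb, which had 70300 to 146000 CPM (counts per 1e6 reads, scaled by TMM factors) over all livers. The sum ran from 121400 to 202800 CPM in controls, 114700 to 136600 at 1% and 102500 to 125900 at 5% oil. At 5% oil 1 of the 12 markers fell and their median log2 change was -0.38. Summed Kupffer cell and macrophage markers (12 of 12 detected) ran from 402 to 778 CPM in controls, 201 to 457 at 1% and 188 to 511 at 5% oil, with none of the 12 past the threshold at either dose and a median change of -0.49 at 5%. Stellate cell and fibroblast markers summed to 382 to 530.2 CPM, 290.1 to 397 and 331 to 365, so that 5% livers lay under all controls on this scale. Without TMM factors these sums overlapped, at 339.5 to 476.3 in controls and 332.7 to 390.7 at 5% oil. Sinusoidal endothelial markers summed to 227 to 377, 291 to 416 and 222 to 277 CPM. The median changes of the 2 lists at 5% were -0.35 and -0.31, with no marker past the threshold. Of 10 adipocyte markers Lep had no read and Adipoq reached 0.197 CPM, and their sum, mostly Car3, ran from 1911 to 5811, 1387 to 3264 and 801 to 2573 CPM. The part of these cell types in the results was not tested. Long noncoding transcripts held 0.646 to 1.63% of reads in controls, 0.685 to 1.91% at 1% oil and 0.676 to 1.24% at 5% oil, with N979 at 1.63%. A score of 14 clock genes lay from -1.21 to -0.486 in controls, -0.274 to 0.751 at 1% and 0.382 to 1.09 at 5%, so the clock score separates control from oil-fed livers as the diets do, and the clock and the diet cannot be told apart in these libraries. In bulk tissue, fewer cells of a type and less RNA per cell cannot be told apart either, which holds for every level below.

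At 5% oil, 3 of the 36 genes rose against control and none fell: Acsm5, Acsl1 and Acadm. They activate medium-chain and long-chain fatty acids and carry out the dehydrogenation of medium-chain esters. The threshold was an adjusted p of 0.05 in edgeR's quasi-likelihood test over the 13814 genes tested, all 36 genes among them. Over all genes tested, 2.46% passed in either direction and 1.19% passed as higher. At an unadjusted p under 0.05, 15 of the 36 were higher and none was lower, where 7.14% of all genes were higher and 7.41% lower. The fold change was above 0 in 27 of the 36, with a median of 0.33 on the log2 scale, against 51.5% of all genes and a median of 0.01. The 4 livers at 5% oil lay above all 4 controls for 6 genes (Crat, Acadvl, Acadl, Decr1, Eci1 and Acat1), and 3.11% of all genes showed such a separation upward. The genes past the threshold are not among these 6, since each had at least 1 of its 5% livers within the range of the controls. With 1 library left out, 0 to 2 of the 36 genes and 138 to 479 of all genes passed. Without a term for sex none of the 36 passed, and 107 of all genes did. With the clock score as a term none of the 36 genes, and none of all genes tested, passed at 5% oil; the changes were then 0.96 for Acsl1, 0.51 for Acsm5 and 0.44 for Acadm (adjusted p = 0.662, 0.801 and 0.845), and the median of the 36 was 0.18.

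At 1% oil none of the 36 genes passed the threshold, and 0.224% of all genes did. At an unadjusted p under 0.05, 12 of the 36 were higher, where 4.52% of all genes were, and 1, Acsl5, was lower, where 6.55% were. DESeq2, run as an alternative, called 6 of the 36 at this dose, among them Cpt2, Slc25a20, Acadl and Eci1. It called 277 of all genes, where edgeR called 31. The fold change was above 0 in 28 of the 36, with a median of 0.25, against 50.1% of all genes and a median of 0.00. Leaving out 1 library gave 22 to 30 of the 36 above 0, with 22 without N979, and medians of 0.14 to 0.30, the lowest without N972. With the clock score as a term the median was 0.15. The 1% livers lay above all controls for 5 genes (Cpt2, Slc25a20, Crat, Acadl and Eci1), against 1.81% of all genes. Without control female N979, 2 of the 36 genes passed at 1% oil, Slc22a5 and Cpt1b, and 184 of all genes did. Both oil diets were compared with the same 4 control livers, so the values of the 2 comparisons are given side by side and are not independent.

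**Figure D1:**
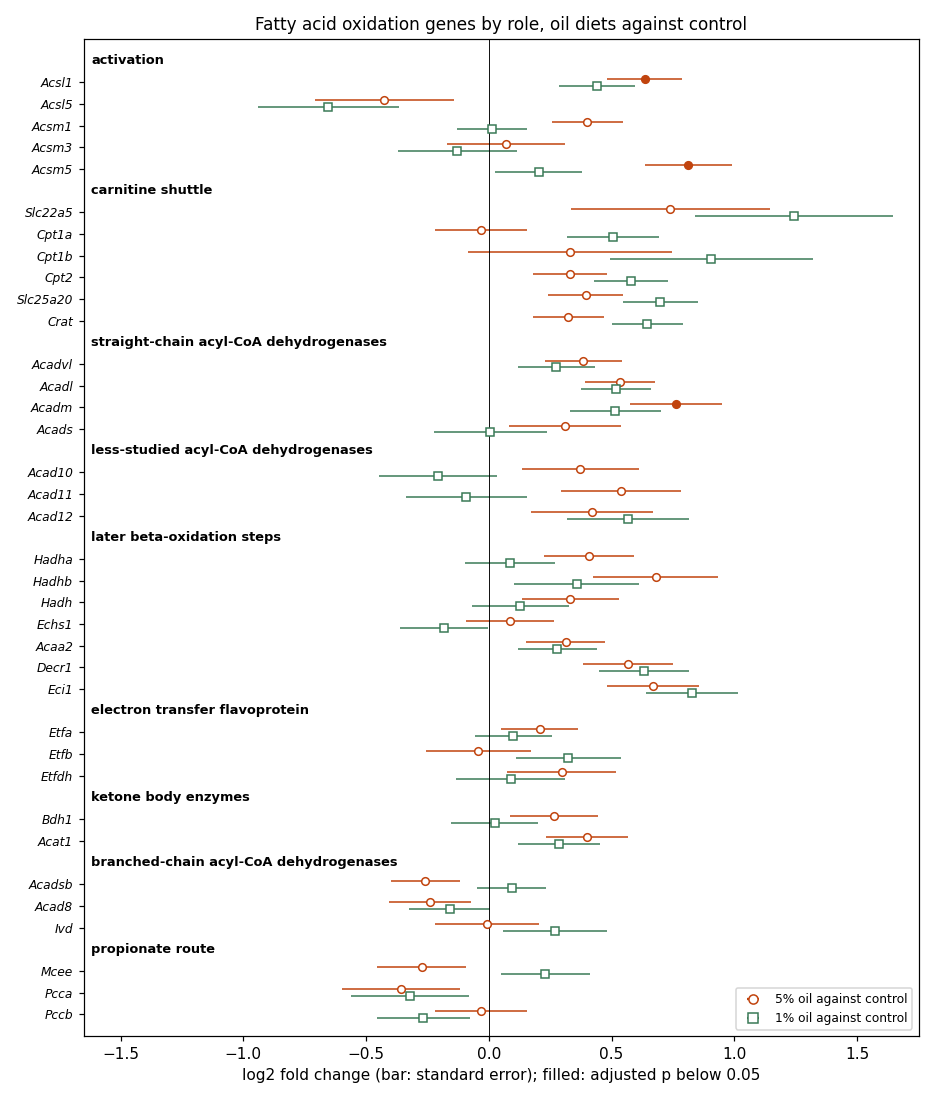
Log2 fold changes of the 36 genes against control, grouped by role, for 5% oil (orange circles) and 1% oil (green squares); bars are standard errors and filled symbols have an adjusted p below 0.05. Filled symbols stand at Acsl1, Acsm5 and Acadm for 5% oil and nowhere for 1% oil, and all 6 carnitine shuttle genes lie right of 0 at 1% oil.

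Acyl-CoA synthetases were the group with the most calls, 2 of 5 genes at 5% oil. Acsm5 encodes a mitochondrial synthetase of medium-chain fatty acids. Its controls had 78.7, 58.0, 108 and 87.7 CPM, the 1% livers 86.3, 95.1, 97.1 and 98.7, and the 5% livers 103, 165, 162 and 147. Female N988, male N975 and male N976 stood well above every other liver, and female N987 lay inside the control range. The mean went from 83.0 ± 20.6 CPM in controls to 144 ± 28.6 at 5% oil (SD, n = 4 each), a log2 fold change of 0.81 ± 0.18 (SE; adjusted p = 0.0283), and was 94.3 ± 5.55 CPM at 1% oil (adjusted p = 0.703). The call was lost without N980, N968, N988 or N976, with adjusted p values of 0.0824, 0.0774, 0.0902 and 0.0700, and held without each of the other 8 animals.

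Acsl1 encodes a long-chain acyl-CoA synthetase. Controls had 505, 475, 889.6 and 639.6 CPM, 1% livers 669, 650.5, 1026 and 1067 and 5% livers 835, 614, 1289.8 and 1200.0. Within each diet both males lay above both females, and the diets overlapped, with female N988 at 5% oil under both male controls. The mean rose from 627 ± 189 to 985 ± 316 CPM at 5% oil, a log2 fold change of 0.63 ± 0.15 (adjusted p = 0.0465), and was 853 ± 224 at 1% oil (0.44 ± 0.15; adjusted p = 0.290). The call held without N967 or N988 (adjusted p = 0.0443 and 0.0411) and was lost without any of the other 10 animals, at adjusted p values up to 0.174. Without the sex term in the fit its adjusted p was 0.407.

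The other 3 synthetases did not pass at either dose. Acsm1, a further medium-chain synthetase, averaged 288 ± 32.9 CPM in controls, 290.3 ± 35.4 at 1% and 381 ± 57.3 at 5% oil (0.40 ± 0.14 at 5%; adjusted p = 0.188). Acsm3 had 105 ± 47.7, 93.0 ± 17.7 and 109 ± 32.5 CPM, so its diets differed by less than the spread between livers. Acsl5, a long-chain synthetase also linked to lipid synthesis, ran the other way, with 415, 1394, 955 and 860.1 CPM in controls, 527, 435, 591 and 795 at 1% and 533, 657, 774 and 769.7 at 5% oil. Control female N979 was the lowest control and N980 the highest of all 12 livers, and the log2 fold changes of -0.65 ± 0.29 at 1% (adjusted p = 0.428) and -0.43 ± 0.28 at 5% (adjusted p = 0.557) did not pass.

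The carnitine shuttle genes had their highest means at 1% oil, and none passed the threshold in any diet comparison. At 1% oil all 6 genes had a fold change above 0 with an unadjusted p under 0.05, where 4.52% of all genes did, and the median was 0.67. At 5% oil 3 of 6 did so, where 7.14% of all genes did, and the median was 0.33. Against 1% oil, 5% oil gave a fold change below 0 for all 6, with a median of -0.41, where 50.4% of all genes were above 0. All 24 alternative analyses kept 6 of 6 above 0 at 1% against control and 6 of 6 below 0 for 5% against 1%; these 2 comparisons share the 1% livers.

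Slc25a20 encodes the translocase that exchanges acylcarnitine for carnitine across the inner membrane. Controls had 76.6, 79.0, 118 and 108 CPM, 1% livers 128, 165, 148 and 169, and 5% livers 119, 109, 149.8 and 119. All 1% livers lay above all controls, while 5% female N988 fell within the control range. The log2 fold change was 0.70 ± 0.15 at 1% (adjusted p = 0.0774) and 0.39 ± 0.15 at 5% (adjusted p = 0.236). Crat, carnitine acetyltransferase, which buffers short acyl groups, had 66.2, 76.9, 83.4 and 64.6 CPM in controls, 97.7, 121, 119 and 118 at 1% and 86.6, 87.5, 106 and 85.0 at 5% oil. Neither oil group overlapped the controls, and the changes were 0.65 ± 0.14 (adjusted p = 0.0831) and 0.32 ± 0.14 (adjusted p = 0.319).

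Cpt2, the inner-membrane enzyme that regenerates acyl-CoA, had 110.1, 100.1, 131 and 117 CPM in controls, 138, 193, 166 and 184 at 1% and 147, 121, 168 and 139 at 5% oil. All 1% livers stood above all controls, and 1 of the 5% livers, N988, lay among them. The change at 1% was 0.58 ± 0.15 (adjusted p = 0.149) and at 5% 0.33 ± 0.15 (adjusted p = 0.331). Cpt1a, the liver form of the malonyl-CoA-sensitive first step, had 171, 182, 273 and 171 CPM in controls, 213, 264, 338 and 327 at 1% and 181, 123, 280.1 and 212 at 5% oil. Control male N967 stood apart from the other controls, and 5% female N988 was the lowest of the 12 livers. The mean was 199 ± 49.5 CPM in controls, 285 ± 58.1 at 1% (0.51 ± 0.19; adjusted p = 0.331) and 199 ± 65.4 at 5% oil (-0.03 ± 0.19; adjusted p = 0.970). The sign at 5% is not fixed, since 6 alternatives, among them the deposited CPM values, put it above 0.

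Cpt1b, the muscle form, was scarce, with 1154 reads over the 12 livers. Controls had 16.1, 3.80, 2.98 and 5.37 CPM, 1% livers 12.9, 12, 14.1 and 10.6 and 5% livers 6.13, 10.7, 9.84 and 6.89. Control female N979 was above every other liver and the other 3 controls were below every oil-fed liver. The change at 1% was 0.91 ± 0.41 (adjusted p = 0.448) with all controls and 1.60 without N979 (adjusted p = 0.0126). Muscle markers were near 0, with summed levels of 0.2 to 2.93 CPM in controls, 1.09 to 2.23 at 1% and 0.615 to 2.20 at 5% oil, and Acta1, Myh6 and Mb had no read in any liver. Slc22a5, the plasma membrane carnitine transporter, showed the same outlying control, with 39.3, 12.3, 14.2 and 10.4 CPM in controls, 41.8, 78.2, 29.7 and 29.3 at 1% and 29.8, 22.9, 41.4 and 22.0 at 5% oil. Its changes were 1.24 ± 0.40 at 1% (adjusted p = 0.270) and 0.74 ± 0.41 at 5% (adjusted p = 0.452), and without N979 it passed at 1%. N979 was also the shallowest library and had the highest noncoding share among controls, and the part of either in these values was not tested.

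**Figure D2:**
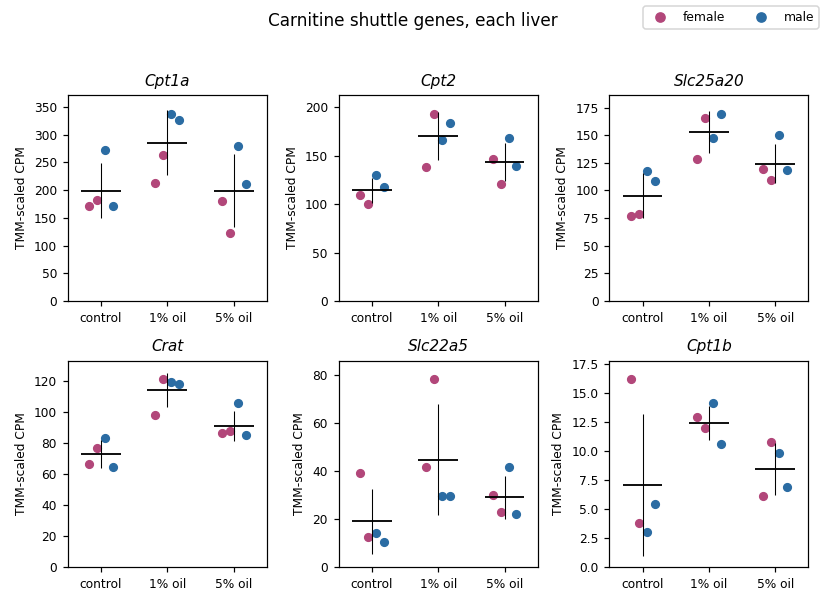
TMM-scaled CPM (linear axis from 0) of the 6 carnitine shuttle genes in each of the 12 livers by diet, females in pink and males in blue; bars are the mean and SD of 4 livers. The 1% means are the highest for all 6 genes, and control female N979 stands far above the other controls for Slc22a5 (39.3 against 10.4 to 14.2 CPM) and Cpt1b.

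Among the straight-chain acyl-CoA dehydrogenases, which take fatty acyl-CoA of decreasing chain length, 1 of 4 rose at 5% oil and all 4 had fold changes above 0. Acadm, the medium-chain enzyme, had 207, 208, 332 and 324 CPM in controls, 289.9, 365, 376 and 481 at 1% and 530.0, 319, 487 and 437 at 5% oil. Both control females lay well under both control males, and at 5% oil female N988 lay under the control males while the other 3 lay above all controls. The mean went from 268 ± 69.8 to 443 ± 91.4 CPM, a log2 fold change of 0.76 ± 0.19 at 5% (adjusted p = 0.0475), and the change was 0.51 ± 0.19 at 1% (adjusted p = 0.314). The call at 5% was lost on leaving out any of the 12 libraries, at adjusted p values of 0.0539 to 0.161. RLE or upper quartile scaling also ended it.

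Acadl, the long-chain enzyme, had less spread. Controls had 176, 219, 239 and 232 CPM, 1% livers 277, 335, 289.8 and 335 and 5% livers 325, 290.2, 331 and 303. All 8 oil-fed livers lay above all 4 controls. The log2 fold change was 0.53 ± 0.14 at 5% (adjusted p = 0.0659) and 0.52 ± 0.14 at 1% (adjusted p = 0.168), short of the threshold. Acadvl, the very-long-chain enzyme of the inner membrane, had 288, 340.5, 384 and 367 CPM in controls, 366, 396, 384 and 523 at 1% and 507, 421, 402 and 461 at 5% oil. The 5% livers lay above all controls, and the 1% livers overlapped them. The changes were 0.38 ± 0.16 (adjusted p = 0.270) and 0.27 ± 0.16 (adjusted p = 0.538). Acads, the short-chain enzyme, averaged 86.4 ± 15.6, 89.4 ± 39.1 and 104 ± 19.1 CPM in control, 1% and 5% livers, with the ranges overlapping.

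Of the 7 genes of the later steps none passed the threshold at either dose, and all 7 had fold changes above 0 at 5% oil. The 2 genes nearest to it serve the oxidation of unsaturated fatty acids, whose double bonds must be moved or reduced before the cycle can go on. Eci1, enoyl-CoA isomerase, had 96.4, 96.8, 129.8 and 151 CPM in controls, 166, 237, 192 and 239.5 at 1% and 164, 228, 180.2 and 171 at 5% oil. Every oil-fed liver lay above every control, and control females lay under control males. The change was 0.67 ± 0.19 at 5% (adjusted p = 0.0808) and 0.83 ± 0.19 at 1% (adjusted p = 0.0878). Decr1, dienoyl-CoA reductase, had 131, 189, 265 and 272 CPM in controls, 267, 321, 301 and 413 at 1% and 312, 290.2, 321 and 309 at 5% oil. The 5% livers were close together and above all controls, and 1% female N983 lay inside the control range. The change was 0.57 ± 0.18 at 5% (adjusted p = 0.136) and 0.63 ± 0.18 at 1% (adjusted p = 0.195).

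**Figure D3:**
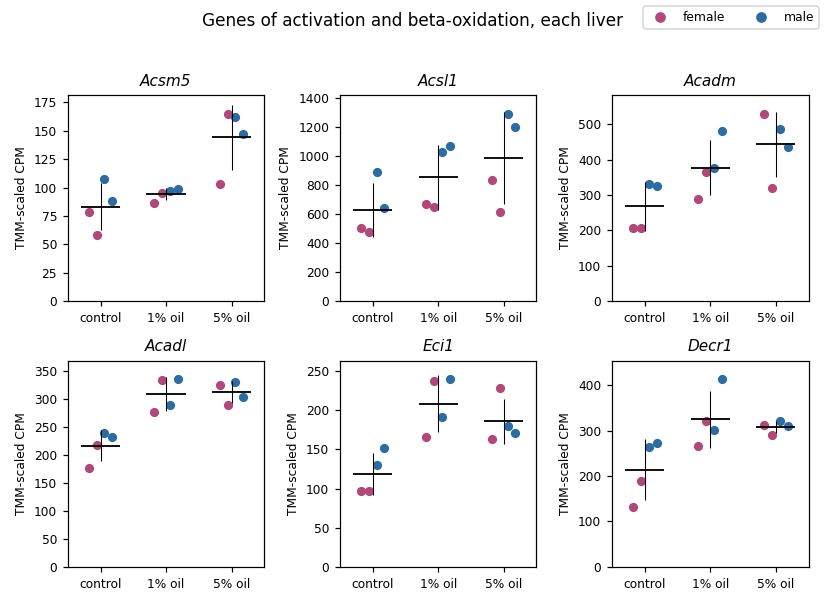
TMM-scaled CPM (linear axis from 0) of Acsm5, Acsl1, Acadm, Acadl, Eci1 and Decr1 in each of the 12 livers by diet, females in pink and males in blue; bars are the mean and SD of 4 livers. For Acadl and Eci1 all oil-fed livers lie above all controls, while for Acsm5 the 1% mean (94.3 CPM) lies near the control mean (83.0 CPM).

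Hadha and Hadhb encode the subunits of the trifunctional protein, which carries out the last 3 steps of the cycle on long chains. Hadhb had 73.0, 168, 246 and 168 CPM in controls, 162, 137, 258 and 288 at 1% and 288, 178, 254 and 287 at 5% oil. Control female N979 was the lowest liver and the diets overlapped. The change at 5% was 0.68 ± 0.26 for Hadhb (adjusted p = 0.223) and 0.41 ± 0.18 for Hadha (adjusted p = 0.327), which had 171, 256, 351 and 249.9 CPM in controls, a range of 209.9 to 332 at 1%, and 373, 280.1, 325 and 361 at 5% oil. Its diets overlapped too. Acaa2, the thiolase that closes the cycle, had 611, 637, 755 and 867 CPM in controls, 671, 787, 882 and 1153 at 1% and 954, 835, 858 and 868 at 5% oil, with changes of 0.31 ± 0.16 (adjusted p = 0.408) and 0.28 ± 0.16 (adjusted p = 0.543). Both oil groups overlapped the controls. Hadh, hydroxyacyl-CoA dehydrogenase, and Echs1, short-chain enoyl-CoA hydratase, had changes of 0.33 ± 0.20 and 0.09 ± 0.18 at 5% oil and of 0.13 ± 0.20 and -0.18 ± 0.18 at 1%.

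The electron transfer flavoprotein takes electrons from the dehydrogenases, and its oxidoreductase Etfdh hands them to ubiquinone. None of these 3 genes passed the threshold in a diet comparison. Etfdh had 108, 218, 320.2 and 236 CPM in controls, 167, 191, 268 and 307 at 1% and 276, 159.5, 318 and 309 at 5% oil. The diets overlapped, and both males lay above both females at every dose. Its change was 0.30 ± 0.22 at 5% (adjusted p = 0.616) and 0.09 ± 0.22 at 1% (adjusted p = 0.909), and the 5% value ran from 0.10 to 0.49 leaving out 1 library. Etfa and Etfb, the flavoprotein subunits, differed in sign at 5% oil, 0.21 ± 0.16 against -0.04 ± 0.21, and neither passed.

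Ketone body genes among the 36 are Acat1, the thiolase that forms acetoacetyl-CoA, and Bdh1, which converts acetoacetate to β-hydroxybutyrate. Acat1 had 295, 440.5, 573 and 563 CPM in controls, 442, 481, 625 and 727 at 1% and 587, 573, 636 and 607 at 5% oil. The 5% livers lay in a narrow band just above the highest control, and control female N979 was the lowest liver. The change was 0.40 ± 0.17 at 5% (adjusted p = 0.284) and 0.29 ± 0.17 at 1% (adjusted p = 0.545). Bdh1 had 149.8, 193, 258 and 223 CPM in controls, 172, 198, 192 and 273 at 1% and 268, 247, 217 and 243 at 5% oil. The ranges overlapped, and the change was 0.27 ± 0.18 at 5% (adjusted p = 0.559) and 0.02 ± 0.18 at 1% (adjusted p = 0.974).

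The branched-chain acyl-CoA dehydrogenases and the genes of the propionate route did not pass the threshold in a diet comparison. Acadsb, Acad8 and Ivd act in the breakdown of isoleucine, valine and leucine. Their changes at 5% oil were -0.26 ± 0.14, -0.24 ± 0.17 and -0.01 ± 0.21. Pcca, Pccb and Mcee turn propionyl-CoA towards succinyl-CoA, and their changes were -0.36 ± 0.24, -0.03 ± 0.19 and -0.27 ± 0.18. All 6 values are below 0, but Ivd and Pccb lie within their error, and under the deposited CPM values 1 gene in each group lies above 0. At 1% oil the values were 0.09 ± 0.14, -0.16 ± 0.17 and 0.27 ± 0.21 for the first group and -0.32 ± 0.24, -0.27 ± 0.19 and 0.23 ± 0.18 for the other. Acadsb, the gene of the first group with the smallest p at 5%, had 80.4, 78.2, 97.8 and 93.4 CPM in controls, 78.8, 80.9, 109 and 107 at 1% and 69.0, 49.8, 92.0 and 85.9 at 5% oil. The lowest liver was 5% female N988, and the diets overlapped. Pcca had 37.3, 94.7, 111 and 95.7 CPM in controls, 45.9, 50.3, 77.3 and 104 at 1% and 64.9, 44.3, 75.7 and 76.5 at 5% oil, with control female N979 the lowest of the 12 livers, and its change at 5% ran from -0.56 to -0.05 leaving out 1 library. Mcee is an example of the spread, with 60.2, 53.5, 44.7 and 67.2 CPM in controls and 44.1, 58.2, 43.9 and 41.4 at 5% oil, the groups overlapping.

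Acad10, Acad11 and Acad12 are less-studied acyl-CoA dehydrogenases. Acad11 had 112, 194, 368 and 208 CPM in controls, 141, 172, 231 and 269.7 at 1% and 346, 179.8, 354 and 354 at 5% oil. Female N988 lay apart from the other 3 livers at 5% oil, which were nearly equal. Its change was 0.54 ± 0.25 at 5% (adjusted p = 0.333; 0.29 to 0.76 leaving out 1 library) and -0.09 ± 0.24 at 1%, the latter with a sign that other settings turn. Acad10 gave 0.37 ± 0.24 and -0.21 ± 0.24, and Acad12, with 1370 reads over all livers, 0.42 ± 0.25 and 0.57 ± 0.25.

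Between the oil diets, none of the 36 genes passed the threshold for 5% against 1%, where 1.33% of all genes did. At an unadjusted p under 0.05, 4 were higher at 5% (Acsm5, Acsm1, Acad10 and Acad11) and 4 lower (Cpt1a, Crat, Acadsb and Mcee), against 10% and 7.77% of all genes, and the change was above 0 in 21 of the 36 (median 0.11), against 50.4% of all genes. The median's direction was not stable: with the noncoding share as a term 11 of the 36 were above 0 and the median was -0.06, and leaving out 1 library gave 0.02 (without N987) to 0.19 (without N972). Acsm5 was the only gene of the 36 whose 5% livers all lay above all 1% livers (4.13% of all genes did). Its change was 0.61 ± 0.18 (adjusted p = 0.101), and DESeq2 called it among 707 of all genes. Cpt1a gave -0.54 ± 0.19 (adjusted p = 0.160) and Crat -0.32 ± 0.14 (adjusted p = 0.259), while Acadl gave 0.01 ± 0.14. A slope over 0, 1 and 5% oil passed for 1 of the 36 genes, Acsm5, at 0.16 log2 units per percent of oil (adjusted p = 0.0195), where 2.23% of all genes passed. The slope call was lost without N988 (adjusted p = 0.0991) or N976 (adjusted p = 0.0642).

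Of the 36 genes 4 were lower in females than in males at the same threshold and none was higher, where 5.34% of all genes passed as lower, 3.6% as higher and 8.94% in either direction. The fold change of female against male was below 0 in 31 of 36, with a median of -0.31, against a median of 0.03 and 52.8% above 0 over all genes. At an unadjusted p under 0.05, 18 were lower and 1 was higher, against 14.8% and 13.9% of all genes. Acsl1 averaged 625 ± 129 CPM in the 6 females and 1019 ± 232 in the 6 males, a log2 fold change of -0.70 ± 0.13 (adjusted p = 0.00434), and it passed under each of the 23 alternatives. Etfdh averaged 187 ± 57.4 and 293 ± 33.7 CPM (-0.66 ± 0.18; adjusted p = 0.0397), Pcca 56.2 ± 21.0 and 90.1 ± 15.7 (-0.68 ± 0.20; adjusted p = 0.0481), and Acadsb 72.8 ± 12.1 and 97.6 ± 9.09 (-0.43 ± 0.12; adjusted p = 0.0349). These 3 calls held under 10, 8 and 8 of the 23 alternatives, and with the noncoding share as a term only Acsl1 passed, at -0.66 (adjusted p = 0.0333). With that term Etfdh gave -0.36, Pcca -0.29 and Acadsb -0.41, and the median of the 36 was -0.19. The noncoding share was 0.646 to 1.91% in females and 0.650 to 1.06% in males, with 4 of 6 females above every male, and its part in the sex values was not tested further. Etfb, at 0.41 ± 0.18 (adjusted p = 0.146), was the gene higher in females at an unadjusted p under 0.05.

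**Figure D4:**
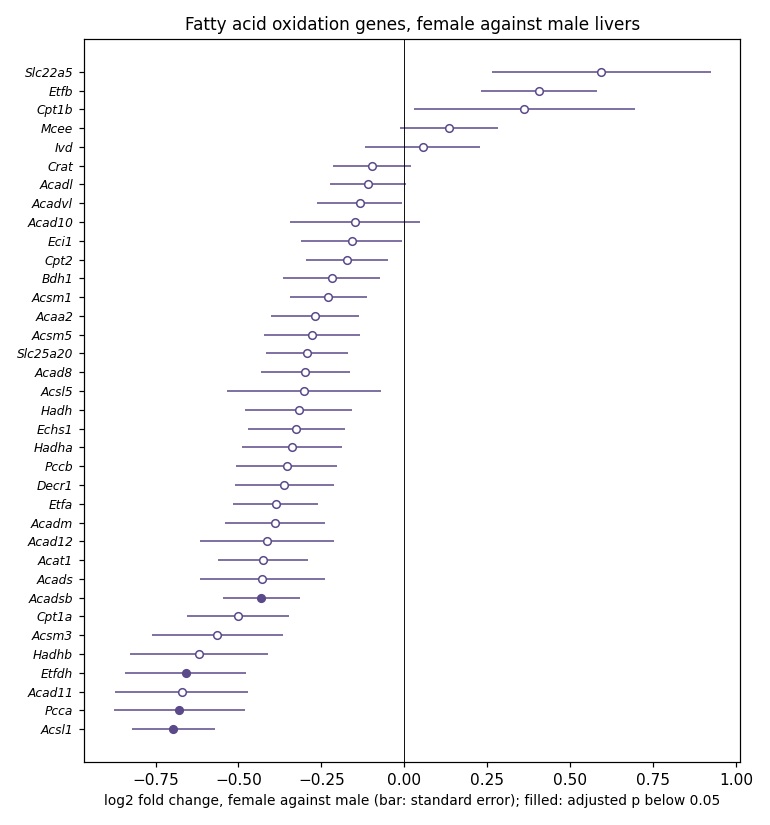
Log2 fold change of female against male livers for the 36 genes, ordered by value, from the fit with diet as a factor; bars are standard errors and filled points have an adjusted p below 0.05. Of the 36 points 31 lie left of 0, and the filled points are Acsl1, Pcca, Etfdh and Acadsb.

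The response to oil was also estimated within each sex, with 2 livers on each side. In females, 16 of the 36 genes were higher at 5% oil at an unadjusted p under 0.05, against 6.37% of all genes, and in males 3 were, against 2.67%. None passed after adjustment in either sex, where 1.85% of all genes passed in females and 0.181% in males. The medians were 0.45 in females and 0.18 in males. The median of the differences between the sexes was 0.20 over the 36 genes, and it was 0.097 without N979, 0.54 without N980, 0.13 without N967, 0.094 without N987 and 0.36 without N988. At 1% oil 8 were higher in females and 6 in males at an unadjusted p under 0.05, against 3.72% and 3.04% of all genes, and 0.029% and 0.0724% of all genes passed after adjustment. The difference between the sexes was itself tested and passed for none of the 36 genes and for none of the 13814 genes at either dose in edgeR (0% of all genes). At an unadjusted p under 0.05, 1 of the 36 (Hadh, 0.73 in females and -0.07 in males) differed at 5% oil and none at 1%, against 4.67% and 3.74% of all genes. DESeq2 called none of the 36. Eci1 gave 1.02 in females and 0.32 in males at 5% oil, and Acadm 1.03 and 0.49. The 2 control females, N979 and N980, each had 5 of the 36 genes above the gene's own mean over the 12 livers, fewer than any other liver.

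Reads of the 36 genes together made up 0.731 ± 0.116% of a control library, 0.873 ± 0.108% at 1% oil and 0.989 ± 0.049% at 5% oil (SD, n = 4 each). Single controls ran from 0.615% to 0.889%, 1% livers from 0.750% to 0.998%, and 5% livers from 0.916% to 1.02%. The 5% livers lay above all controls on this sum, which the most abundant genes dominate. Over single livers, male N972 on 1% oil had 35 of the 36 genes above their own means, and 5% female N988 had 16.

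**Figure D5:**
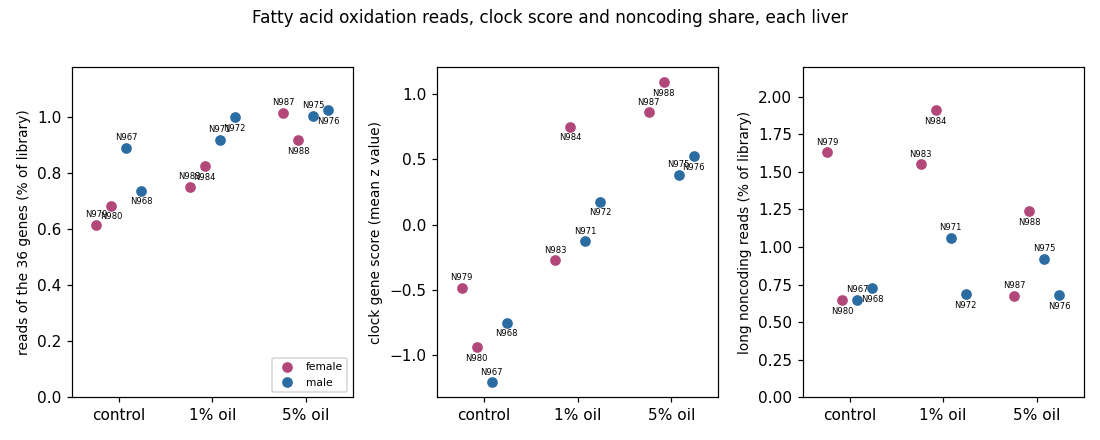
Share of reads on the 36 genes (left, percent), clock gene score (middle, mean z value of 14 genes) and share of reads on long noncoding genes (right, percent) in each liver by diet, named by animal, females in pink and males in blue. The share of reads on the 36 genes and the clock score both separate 5% livers from controls, and the noncoding share does not.

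Levels can be compared between genes only per length, here as transcript counts over annotated transcript length, scaled to the same sum in each library. On this scale Acaa2 was the highest of the 36 in controls, at 764 ± 95.0 (SD, n = 4), followed by Acsl5 at 510.1 ± 221, Etfb at 449.5 ± 140.1, Etfa at 347 ± 74.4 and Acat1 at 286 ± 35.3. The SDs of Acsl5, Etfb and Etfa are wide enough that their order is not fixed. Cpt1a, the entry step, stood at 65.0 ± 21.7. Slc22a5 at 8.95 ± 6.00, Acad12 at 4.83 ± 1.41 and Cpt1b at 3.27 ± 2.83 were the lowest. For Acadsb and Acad10 the transcript with the most reads, 88.2% and 43.2% of the gene's reads, is annotated as a retained intron, and a further transcript of Acad10 held 38.5%. For Hadha the leading transcript, with 68.9%, is annotated as noncoding processed.

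Other genes of the pathway were counted from lists, which were written with earlier results of these data known. Over all genes, 1.19% rose at 5% oil and 0.224% passed in either direction at 1%. Of 34 tested fatty acid oxidation and ketone genes outside the 36, 3 rose at 5% oil (Ech1, Eci2 and Acot2), 2 rose at 1% (Eci2 and Acot2) and none fell, and the median change at 5% was 0.09. Ech1, a dienoyl-CoA isomerase of mitochondria and peroxisomes, went from 292 ± 48.5 CPM to 493 ± 68.8 at 5% oil (0.76 ± 0.17; adjusted p = 0.0326). Eci2, an enoyl-CoA isomerase of the same organelles, went from 172 ± 42.2 to 383 ± 62.2 at 1% (1.16 ± 0.19; adjusted p = 0.0224) and 297 ± 51.4 at 5% oil. Acot2, a mitochondrial thioesterase that frees long-chain acids from CoA, went from 6.93 ± 1.18 to 25.2 ± 3.80 and 18.8 ± 6.07 CPM (1.87 ± 0.23 and 1.41 ± 0.23). 

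Of 27 tested classical PPARα targets outside the 36 genes, 13 rose at 5% oil, where 1.19% of all genes did. The 1 that fell was Pdk4, a kinase that holds back glucose oxidation, named after its value was seen. At 1% oil 5 rose (Cyp4a10, Cyp4a14, Acot1, Ehhadh and Slc27a1), where 0.224% of all genes passed in either direction. The list's median was 0.76 at 5% and 0.70 at 1%, where the 36 genes had 0.33 and 0.25. Because the list was written with earlier results of these data known, its counts and medians cannot serve as a test against the 36 genes. Cyp4a10, a fatty acid hydroxylase, went from 399 ± 138 CPM to 2316 ± 415 at 5% oil (2.56 ± 0.26; adjusted p = 0.000273), and Ehhadh, a bifunctional enzyme of peroxisomal oxidation, from 256 ± 111 to 1270.0 ± 282 (2.34 ± 0.24; adjusted p = 0.000293). Of 26 genes for PPARα and its partners none passed the threshold as higher at either dose, and 2 passed as lower at 5% oil. These were Ppard, a related receptor (-1.92 ± 0.30, adjusted p = 0.00579), and Ppargc1a, a coactivator of mitochondrial genes (-1.64 ± 0.38, adjusted p = 0.0425). The fold change at 5% oil was above 0 in 22 of the 26, with a median of 0.22, against 51.5% of all genes and a median of 0.01. Ppard also fell at 1% (-1.85 ± 0.30). None of 18 tricarboxylic acid cycle genes, 21 mitochondrial content genes or 19 further branched-chain amino acid and propionate genes passed at either dose, with medians at 5% oil of 0.04, 0.16 and -0.05. Of 20 clock genes, 8 rose and 4 fell at 5% oil and 1, Tef, rose at 1%.

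The deposited CPM table holds 11339 genes, with all 36 among them. The authors' deposited table of 261 genes, whose contrast its header does not name, lists 7 of the 36. All 7 have positive fold changes, and the share of positive values over the 261 was not counted here. A place in the 261 is not the same as passing 0.05, since Crat is listed there with the authors' adjusted p of 0.0528. In the authors' deposited table Decr1 has a log2 fold change of 0.73, Acadl 0.64, Eci1 0.86, Slc25a20 0.66, Acadm 0.74, Acsl1 0.66 and Crat 0.61. Acsm5, which had the smallest p among the 36 at 5% oil here, is not in the authors' deposited table.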

How the data were processed

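Liver mRNA libraries of 12 mice were analysed. The authors deposited estimated counts per gene and per transcript, log2 values and adjusted p-values of a 261-gene list, a CPM table of 11339 genes, and a table of signal values per library that entered no test; the submitters' processing notes name kallisto, edgeR, limma and GRCm39, with neither versions nor roles. Here p-values, fold changes and TMM-scaled CPM were computed anew. Counts were rounded (11.7% of cells were not whole) and tested with edgeR 4.0.16 (R 4.3.3; filterByExpr over 6 diet and sex groups, TMM scaling, robust quasi-likelihood fit with diet and sex terms), with Benjamini-Hochberg adjustment over 13814 genes and a threshold of 0.05. The SE of a log2 fold change is its size over the square root of F. Fits with dose as a number and with 6 groups gave slopes, sex interactions and values within sex. Alternatives used limma 3.58.1, DESeq2 1.42.0, other scalings, filters, terms and 12 leave-one-out fits. Only the main edgeR fit was run on simulated data, and the alternatives were not. Estimated counts may divide reads between related genes, such as the Acsm family, and strand use in counting is not given in the sources used here. The labels give each animal a number, so p-values measure the spread between these animals, and the common biological coefficient of variation was 0.266. Of the gene IDs, 48845 matched a symbol and 553 did not, and 1 list symbol was not found. Sums of transcript counts were within 1 read of the gene counts for all 36 genes.

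The genes and lists were chosen with earlier results of these data known. Given in full were the genes past the threshold in a diet, slope or sex comparison, 12 genes taken by function (Cpt1a, Cpt1b, Cpt2, Slc25a20, Acadm, Acadl, Acadvl, Hadha, Hadhb, Acaa2, Bdh1 and Acat1) and, in each role, the gene with the smallest p at 5% oil; Crat, Decr1, Slc22a5 and Acsl5 were added after their values were seen. Of each pathway list, up to 4 genes by the smallest p for each dose could be named.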

Additional observations from a re-analysis of the deposited data

Results flagged for a closer look

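In 9 of the 108 groups formed by 36 genes and 3 diets, the liver at the end of the group stood apart from the other 3 by Dixon's 95% limit, where chance gives about 1 in 20. Control female N979 accounted for 3 of them: Slc22a5 at 39.3 CPM against 10.4 to 14.2 in the other controls, Ivd at 237 against 129 to 144, and Echs1 at 169 against 234 to 244. Female N988 on 5% oil accounted for 2, with Acad11 at 180.0 CPM against 346 to 354 and Mcee at 58.2 against 41.4 to 44.1. Crat stood apart in both oil groups, at 97.7 CPM in 1% female N983 against 118 to 121 and at 106 in 5% male N975 against 85.0 to 87.5. Cpt1a was high in control male N967, at 273 CPM against 171 to 182, and Acsm1 in 1% male N972, at 343 against 270.0 to 277. The response to oil differed between the sexes past the threshold for none of the 36 genes in edgeR, where 1 at 5% oil and 0 at 1% oil had an unadjusted p under 0.05.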

How the results depend on the processing

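No paired analysis was possible because replicate names are animal numbers that no 2 groups share, so no replicate block could be fitted. Of the 36 genes, 3 passed at 5% oil, and the number was 1 with RLE scaling, 5 without a filter on low counts, 5 in DESeq2, 9 on the deposited CPM values, 0 without a sex term, 1 with 6 groups, 5 with the noncoding share as a term, 0 with the clock score as a term, and 0 to 2 leaving out 1 library. At 1% oil 0 passed, and the number was 4 without a filter, 1 with 50 reads in 4 libraries, 6 in DESeq2, 2 on the deposited CPM values, and 0 to 2 leaving out 1 library (2 without N979). For 5% against 1% the number was 0 and in DESeq2 1. The slope passed for 1 gene, for 2 in DESeq2, 3 on the deposited CPM values, 0 without a sex term, 0 with the clock score, and 0 to 1 leaving out 1 library. By sex 4 passed, and 2 with upper quartile scaling, 7 without a filter, 9 in DESeq2, 1 with 6 groups, 1 with the noncoding share, 1 with the clock score, and 1 to 10 leaving out 1 library (10 without N980 or N987). Over all genes, 340 passed at 5% oil (1011 without a filter, 749 in DESeq2, 641 with the noncoding share, 107 without a sex term, 0 with the clock score, 138 to 479 leaving out 1 library) and 31 at 1% (649, 277 and 50 without a filter, in DESeq2 and with 50 reads in 4 libraries, 54 on deposited CPM, 10 without a sex term, 2 with the clock score, 13 to 184 leaving out 1 library). For 5% against 1% it was 184 (1276 without a filter, 707 in DESeq2, 281 on deposited CPM, 8 without a sex term, 63 with the noncoding share, 9 with the clock score, 13 to 597 leaving out 1 library), for the slope 308 (1108, 733, 629 with the noncoding share, 124 without a sex term, 2 with the clock score, 80 to 424), and by sex 1235 (2375, 2079, 394 with the noncoding share, 346 with the clock score, 594 to 2356). On the deposited CPM values, with 11339 genes, 458 passed at 5% oil and 435 for the slope. The fit with 6 groups gave 362 of all genes at 5% oil and 1011 by sex. RLE scaling gave 337 at 5% oil, and upper quartile scaling gave 1229 by sex. The interaction with sex passed for 0 genes, for 229 at 5% and 109 at 1% without a filter, and for 43 and 6 in DESeq2. The deposited CPM values moved the median of all genes at 5% oil from 0.01 to 0.18 and that of the 36 genes from 0.33 to 0.48. Of the single values, 25 changed sign, all of them uncalled. Cpt1a at 5% oil lay between -0.17 and 0.10 leaving out 1 library and became 0.12 on deposited CPM, 0.26 with the clock score, 0.03 without N980, 0.07 without N967, 0.10 without N988 and 0.01 without N976. Acad11 at 1% lay between -0.26 and 0.13 leaving out 1 library and became 0.038 on deposited CPM, 0.24 with the noncoding share, 0.22 with the clock score, 0.02 without N980 and 0.13 without N967, and Pcca at 1% became 0.12 with the noncoding share. With the clock score, 5% values became -0.49 for Cpt1b, -0.043 for Cpt2, -0.20 for Acaa2, -0.23 for Eci1, -0.017 for Bdh1 and 0.044 for Pcca, and 1% values -0.047 for Acaa2, -0.16 for Bdh1 and -0.34 for Mcee. Leaving out 1 library, 1% values lay between -0.043 and 0.21 for Hadha, -0.094 and 0.28 for Etfdh, and -0.12 and 0.11 for Bdh1; the lowest were without N979 for Hadha and Etfdh and without N972 for Bdh1, which was -0.089 without N979. Of the alternative values of called results 102 stayed past the threshold and 85 did not, and 0 changed sign. The cause was not tested for any of these. With 2 livers of each sex per diet, leaving out 1 in the 6-group fit leaves a group of 1, which is assumed to vary like the others. The 6-group alternative was not run for the slope, nor the alternatives with other terms for the interactions. Depth limits Cpt1b and Acad12, the genes with the fewest reads.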

Other observations

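Transcript shares were looked at for the 36 genes, and Mcee, methylmalonyl-CoA epimerase, is given because its values stood out when seen, so no test is reported. Its leading transcript held 68.8 to 76.7% of the gene's reads in controls, 73.0 to 74.4% at 1% oil and 77.3 to 81.4% at 5% oil. The livers on 5% oil lay above the other 8. Of the enzymes around malonyl-CoA, also chosen after their values were seen, Acaca and Acacb, which make it, had log2 fold changes of -1.88 ± 0.49 (adjusted p = 0.168 in edgeR) and -1.15 ± 0.31 (adjusted p = 0.164) at 1% oil. Mlycd, which breaks it down, had 0.52 ± 0.14 (adjusted p = 0.166). None of these 3 passed the threshold at either dose. Their values at 5% oil are not given here, and their part in the levels of the shuttle genes was not tested.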
